A study of Mus musculus with 8 samples.

Results

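Ubiquitin is a small protein that is attached to other proteins and marks them for the proteasome. An activating enzyme (E1) loads it, a conjugating enzyme (E2) carries it and a ligase (E3) joins it to the target. In skeletal muscle the ligases atrogin-1 (Fbxo32) and MuRF1 (Trim63) are the classical atrophy genes, and FOXO transcription factors are known to raise them when muscle wastes. AMPK, the AMP-activated kinase, has 2 catalytic isoforms, AMPKα1 and AMPKα2, and is known to act on FOXO factors. The genes described here are Ubb, which encodes polyubiquitin B, the ligases Fbxo32, Trim63, Fbxo30 (MUSA1) and Trim54 (MuRF3), the conjugating enzyme Ube2b, and Murc. Murc is the older symbol of Cavin4, a caveolar coat protein of muscle, so it is not a ubiquitin ligase although it was grouped with them. All alternative polyadenylation sites (APSs) that the table assigns to these 7 gene symbols were taken, which gave 59 of 56483 APSs and 7 of 15378 genes. The set was chosen by measured values: Ubb was picked because its reads were low in AMPKα2 KO mice, so the values of the 7 genes in the AMPKα2 contrast are given below as a description, and the calls counted there are no test of them. Other genes of the pathway were tested in both models.

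The libraries come from whole gastrocnemius muscle of 2 male KO and 2 male wild-type (WT) mice in each of an AMPKα1 and an AMPKα2 model, 8 libraries of 1 mouse each. Whole transcriptome termini site sequencing (WTTS-seq) reads the 3′ ends of polyadenylated transcripts, and the values are raw read counts per APS. The methods of the study give an age near 6 weeks for the AMPKα1 KO mice and near 8 weeks for the AMPKα2 KO mice, while the ages of the WT mice are not given in the sources used here. The labels give C57BL/6 as the strain background of every mouse and call them adult, but the methods name 129S2/SvPas for the AMPKα1 KO mice. The targeted subunit is absent from the whole animal, and fewer cells of a type cannot be told apart from less RNA per cell in such bulk samples. Because each model has its own WT mice, KO was compared with WT within a model, and CPM values (counts divided by the TMM-scaled size of the library) were scaled within a model.

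Between 2311242 and 3549156 reads were counted per library. Markers of skeletal muscle were read in all libraries (10 of 10 genes, summed level 57666 to 181790 CPM). Reads of the targeted genes did not separate the genotypes: Prkaa1 had 0 and 82 reads in AMPKα1 KO and 15 and 0 in WT, and Prkaa2 had 40 and 71 reads in AMPKα2 KO and 87 and 62 in WT. The alleles delete part of the catalytic domain, and reads at 3′ ends can lie outside it, so these counts do not check the labels. The AMPKα1 libraries were far less alike within a group. Among APSs with at least 50 reads in one AMPKα1 KO mouse, 30.4% had no read in the other (3 of 23 APSs of the genes described here), against 5.09% for the WT mice of that model and, in AMPKα2, 0.293% for KO and 0.318% for WT mice. The biological coefficient of variation per gene was 104% in AMPKα1 and 26.2% in AMPKα2. The replicates are separate mice, and 2 against 2 cannot give an exact permutation p below 0.333, so p values come from edgeR's quasi-likelihood test across all genes or APSs with Benjamini-Hochberg adjustment, called at an adjusted p under 0.1.

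The APS that carries nearly all Ubb reads lies at the annotated end of the gene, on chromosome 11 at 62553215, which is 2 bases past the last annotated base (62553213, plus strand, GRCm38). It held 99.3% of all Ubb reads. The last 30 bases of the transcript are printed because they show a polyadenylation signal (AATAAA, in capitals) in front of this site, and the corresponding ends of Trim63, Trim54, Murc, Fbxo32 and Fbxo30 are printed with it. All were read 5′ to 3′ on the strand of the transcript from GENCODE release 21 transcripts (GRCm38).

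Ubb, chr11:62553184-62553213, plus strand: tAATAAAggttttgttgcatggtaagcata

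Trim63, chr4:134329600-134329629, plus strand: aaaaAATAAActcacaatgctcttttcctg

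Trim54, chr5:31137601-31137630, plus strand: tctcAATAAAggactcaagtgtcccacgtc

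Murc, chr4:48673468-48673497, plus strand: cacaagtcttcacggAATAAAgagtgaaaa

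Fbxo32, chr15:58175881-58175910, minus strand: tgaacttcAATAAAtgtttttcctacaaca

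Fbxo30, chr10:11298019-11298048, plus strand: ctaaAATAAAgttaagatgtggccttcaaa

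In each of these 6 windows AATAAA was found. It was not found in the window of the Ube2b APS nearest its gene end (51985554), which is not printed. The motif was searched on the transcript strand in 30-base windows that end at an APS or, for the 3 APSs just past a gene end, at the last annotated base. The latter windows reach further back from their APS. Motifs cut by the edge of a window or lying outside it were not searched. It was present in 7 of 39 windows of these genes, and ATTAAA in 0 of 39. Of the 39, 37 were read in the transcript that gave the location of the APS and 2 in other annotated transcripts, for a Murc APS past the gene and a Trim63 APS near the end of a short transcript. The shares were 34.9% and 10.8% for AATAAA and ATTAAA in 25085 such windows over all APSs. The windows without the motif include coding sequence and the 3′ UTR of Fbxo32 and Ube2b, as given below.

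The other 3 Ubb APSs lie in its coding sequence, which is 915 bases long and holds 4 head-to-tail copies of a 228-base ubiquitin unit that are 95.6 to 99.1% identical to each other. The windows that end at 2 of these APSs are printed because they come from neighbouring copies and nearly repeat each other, with no capitals as no signal was found.

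Ubb, chr11:62552502-62552531, plus strand: gatctttgccggcaagcagctggaagatgg

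Ubb, chr11:62552729-62552758, plus strand: tgatctttgccggcaagcagctggaagatg

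These APSs end at base 158 of the second unit and base 157 of the third. Reads at the coding APSs may have been placed on either unit, and their counts are uncertain. Whether all of these reads come from Ubb was not tested, so the shares of Ubb reads given below are uncertain too.

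In AMPKα2 KO mice Ubb reads were scarce. Summed over the gene, the KO mice had 58 and 69 reads and the WT mice 700 and 570, or 32.1 ± 6.96 CPM against 237 ± 45.6 (SD, n = 2). Both KO libraries lie far under both WT libraries, a 7.39-fold lower mean and a log2 fold change of −2.89 (SE 0.29), the 76th lowest of the 10552 genes tested. These values chose the gene and are no test of it. For the background, 0.303% of genes were called lower in this model (32 of 10552), and of the 6 genes described here with enough reads 1 was, Ubb. In AMPKα1 mice Ubb had 1289 and 2421 reads in KO against 2757 and 2199 in WT. The groups overlap once scaled (518 ± 214 CPM against 1071 ± 614), and the log2 fold change of −1.05 (SE 0.54) did not pass edgeR's test (adjusted p = 0.763). On one scale for all 8 libraries, the Ubb level ran from 567 ± 323 CPM in AMPKα1 WT over 441 ± 88.0 in AMPKα2 WT and 279 ± 108 in AMPKα1 KO to 60.0 ± 11.6 in AMPKα2 KO. AMPKα1 WT overlaps both of the next groups in that order, AMPKα2 WT and AMPKα1 KO do not overlap, and AMPKα2 KO stands below all other libraries.

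The low Ubb level came from the end APS and not from the coding ones. At the end APS 35 and 50 reads were counted in AMPKα2 KO and 682 and 561 in WT, a log2 fold change of −3.60 (SE 0.36). Of 43 APSs of these genes with enough reads it was the 1 called in AMPKα2, where 0.056% of all APSs were (13 of 23218), and the same reads chose it. It was not called without either KO mouse or without the second WT mouse. With 1 library left out the log2 fold change of the whole gene ran from −3.12 to −2.68, and in a fit over all 8 libraries (−2.88) the gene was not called. The 3 coding APSs together had 23 and 19 reads in KO against 18 and 9 in WT, 8.70 ± 3.62 against 4.15 ± 0.64 CPM. Their KO counts were therefore not low, and only 1 of the 4 Ubb APSs was low in KO. The end APS took 60.3% (95% exact binomial interval 46.6 to 73.0%) and 72.5% (60.4 to 82.5%) of Ubb reads in KO and 97.4% (96.0 to 98.5%) and 98.4% (97.0 to 99.3%) in WT. Such intervals cover counting error only, since reads from PCR carry no molecular identifiers here and may be copies of one molecule. The share was thus 31.5 percentage points lower in KO by its mean. As a background, the share of the most-read APS, which need not be the end APS, was compared in 3484 genes with several APSs. These had at least 100 reads in AMPKα2 and reads in each of its libraries. In 18 of them, Ubb included, the drop was as large or larger (median over genes −1.35 points). The same low reads chose Ubb, so this rank is no test. In AMPKα1 the coding APSs had no read, so the end APS held 100% in all 4 libraries. The cluster of read ends behind the end APS spans 786 bases (62552864 to 62553649) and reaches back into the coding sequence, which ends at 62553060.

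**Figure D1:**
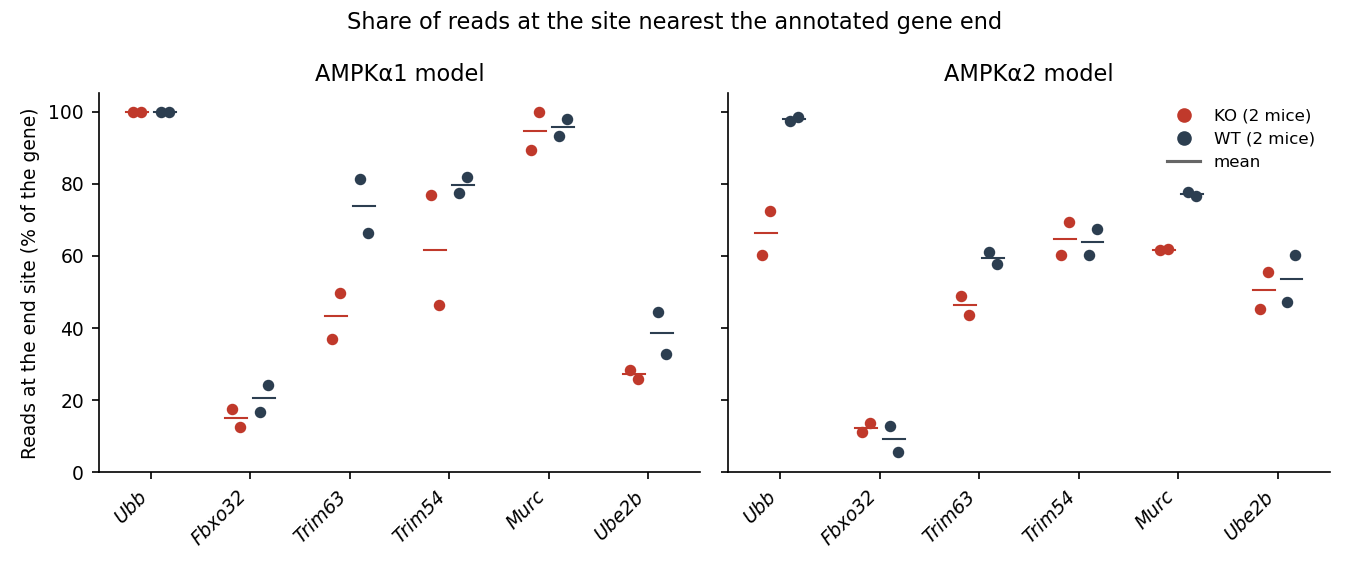
Percent of the reads of a gene (y axis) at the APS nearest its annotated end for 6 genes (x axis) in the AMPKα1 (left) and AMPKα2 (right) models; points are libraries, red KO and dark WT, bars the means of 2 mice. For Ubb in AMPKα2 the KO libraries sit at 60.3 and 72.5% and the WT libraries at 97.4 and 98.4%; for Trim63 both KO libraries lie below both WT libraries in each model. How many of all genes have such separate shares was not counted.

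The genes most like Ubb were sought by Pearson's correlation of log2(CPM + 1) over the 8 libraries among 9971 genes with at least 100 reads. The nearest were Gtf2h4 (a TFIIH subunit, r = 0.92), Dusp26 (a phosphatase, r = 0.91), Gm30958 (r = 0.91), Gm10288 (r = 0.91) and Marcks (a substrate of protein kinase C, r = 0.91). All 5 had both KO libraries below both WT libraries in AMPKα2, and Gm10288 showed it at the highest counts, with 9 and 5 reads in KO against 953 and 505 in WT. Dusp26 had 12 and 18 reads in KO against 100 and 72 in WT. The 8 points share 4 groups, so a likeness mostly restates the group means. Among the genes described here Murc was nearest to Ubb (r = 0.79).

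Fbxo32 encodes atrogin-1, the F-box subunit of an SCF ubiquitin ligase. It had 4490 and 1391 reads in AMPKα1 KO and 447 and 532 in WT. Both KO libraries lie above both WT libraries, with the first KO mouse well above the second (830 ± 631 CPM against 199 ± 63.5). The log2 fold change of 2.06 (SE 0.64, unadjusted p = 0.0174) was not called by edgeR's quasi-likelihood test (adjusted p = 0.763), which called 0.0% of 13941 genes in AMPKα1, while 4.21% had an unadjusted p under 0.05. DESeq2 called Fbxo32 (adjusted p = 0.0329) among 1.23% of genes. Without the first KO mouse the log2 fold change was 0.94, and without the second 2.68, so the size rests on that mouse. In AMPKα2 Fbxo32 had 90 and 174 reads in KO against 180 and 140 in WT, which overlap (62.9 ± 7.82 against 59.4 ± 9.53 CPM).

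Most Fbxo32 reads did not end at the annotated gene end. Of its 14 APSs, 11 are in the 3′ UTR, 2 in introns and 1 in coding sequence. The APS at 58180086 on chromosome 15, which is 4207 bases before the gene end, held 57.9% of the reads pooled over all libraries, and the end APS (58175881) 16.6%. Most of that pool came from the first AMPKα1 KO mouse, where the share of the former was 69.9%, against 47.1% in the second KO mouse and 59.7 and 28.9% in WT. In AMPKα2 it took 11.1 and 11.5% in KO and 13.3 and 32.1% in WT, and the APS at 58180809 took more in 3 of these 4 libraries, which were both KO mice (14.4 and 19.0%) and the first WT mouse. Neither AATAAA nor ATTAAA was found in the 30 bases that end at the APS at 58180086, printed here. The window begins with ataaaa, so a motif cut by its edge would not have been seen. For the Ubb and Trim63 end APSs the motif starts 30 bases before the APS, further back than this window reaches. Whether the APS at 58180086 lacks a signal was therefore not settled.

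Fbxo32, chr15:58180086-58180115, minus strand: ataaaattgccactatgcatgctcttggca

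Its reads were 3137 and 655 in AMPKα1 KO and 267 and 154 in WT. The end APS had both KO libraries above WT as well, with 793 and 175 reads in KO against 75 and 129 in WT. For both APSs the KO libraries lie above the WT libraries once scaled, and edgeR called neither (log2 fold changes of 2.32, SE 0.75, and 1.66, SE 0.72, each with an adjusted p of 0.543). The second KO mouse was only a little above the first WT mouse, at 172 against 155 CPM (58180086) and 45.9 against 43.6 CPM (end APS). The end APS took 12.6 to 24.2% of Fbxo32 reads in the AMPKα1 libraries and 5.71 to 13.8% in the AMPKα2 libraries. In AMPKα2 the APS at 58180086 had 10 and 20 reads in KO against 24 and 45 in WT, and the 2 groups overlap once scaled. The APS at 58180809, with 7.39% of the reads, is followed in the genome by 12 As, the kind of stretch on which an oligo(dT) primer can start inside a transcript, and whether its reads mark true transcript ends was not tested.

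Trim63 encodes MuRF1, a RING-finger ligase of the sarcomere. It had 842 and 1120 reads in AMPKα1 KO and 1018 and 808 in WT, which overlap (274 ± 49.4 against 395 ± 227 CPM, log2 fold change −0.52, SE 0.51, edgeR adjusted p = 0.919). In AMPKα2 198 and 461 reads were counted in KO against 812 and 395 in WT, so both scaled KO levels (126 and 181 CPM) lie below both WT levels (237 and 186 CPM), the upper KO level only just. The log2 fold change there was −0.46 (SE 0.27). As a background, the KO libraries lay below the WT libraries for 20.7% of genes in AMPKα2.

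The APSs of Trim63 did not follow the gene total. Its end APS (chromosome 4, 134329634, 5 bases past the annotated end) held 57.6% of the reads, and an APS 8850 bases before the gene end, in an intron (134320779), 16.0%. The sequence around the intronic APS was not read, and whether its reads mark true transcript ends was not tested. At the end APS 312 and 558 reads were counted in AMPKα1 KO and 828 and 537 in WT (log2 fold change −1.47, SE 0.59, edgeR adjusted p = 0.543). Both scaled KO levels (81.4 and 146 CPM) lie below both WT levels (481 and 151 CPM), the upper KO level only just. The intronic APS went the other way, with 332 and 314 reads in KO against 86 and 99 in WT (log2 fold change 1.12, SE 0.67, edgeR adjusted p = 0.543). The share of Trim63 reads at the end APS was therefore 37.1 and 49.8% in AMPKα1 KO and 81.3 and 66.5% in WT, a change of −30.5 points by the means. Over 6278 genes chosen as for Ubb, the change at the most-read APS had quartiles of −13.1 and 12.3 points in AMPKα1. In AMPKα2 the end share of Trim63 was also lower in KO, 49.0 and 43.6% against 61.2 and 57.7%, but the intronic APS was not higher there, with 3 and 10 reads in KO against 42 and 17 in WT. That change was −13.2 points, where the quartiles over 3484 genes were −6.86 and 2.62. How many of these genes had shares without overlap was not counted. An APS in the coding sequence (134327779) had 0 and 0 reads in AMPKα1 KO and 10 and 32 in WT. Its WT mean was 9.45 times a floor of 3 reads per KO library, which is no lower bound on the difference. edgeR did not call this APS (adjusted p = 0.543), and in AMPKα2 it had 53 and 184 reads in KO against 133 and 68 in WT.

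**Figure D2:**
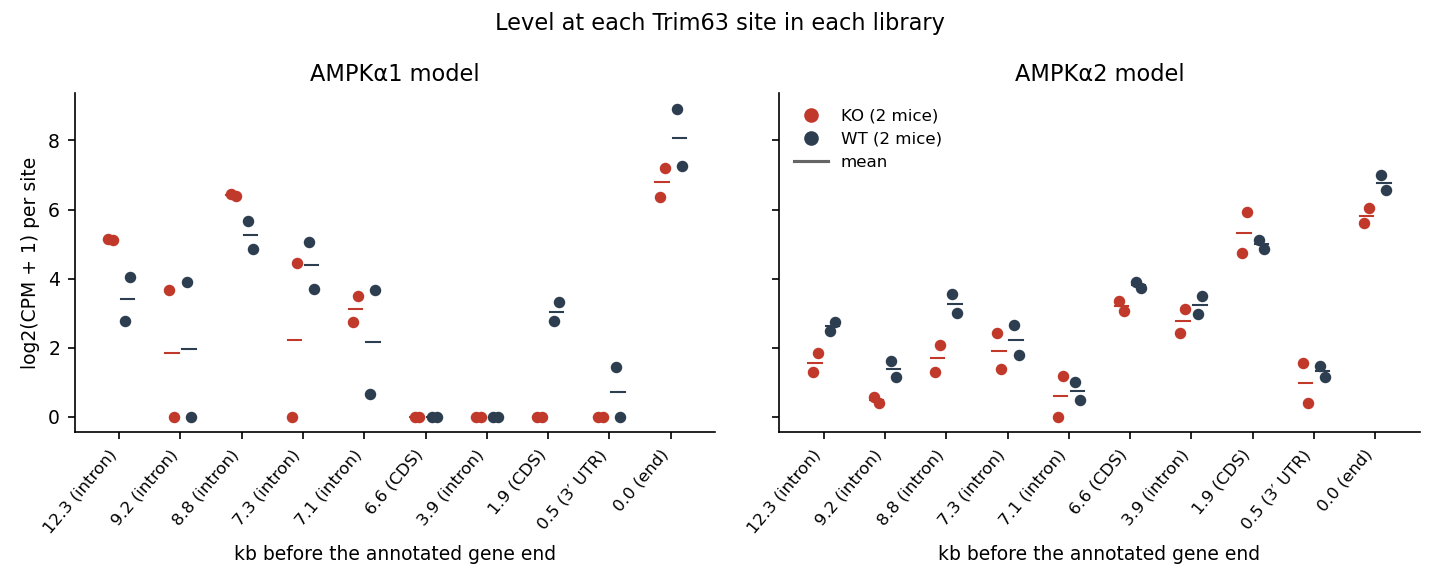
Level at each of the 10 Trim63 APSs (y axis: log2(CPM + 1); x axis: kb before the annotated gene end, with the location) in the AMPKα1 (left) and AMPKα2 (right) models, each scaled on its own; points are libraries, red KO and dark WT, bars the means of 2 mice. At the intronic APS 8.8 kb before the end the KO libraries lie above WT in AMPKα1 and below WT in AMPKα2, and at the end APS they lie below WT in both, the second AMPKα1 KO library only just.

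Trim54, the gene of MuRF3, which binds microtubules and the sarcomere, differed little. It had 377 and 551 reads in AMPKα1 KO and 298 and 553 in WT, and 296 and 458 in AMPKα2 KO and 560 and 299 in WT. After scaling both KO levels were below WT in AMPKα1 (130 ± 31.8 against 161 ± 1.72 CPM) and above WT in AMPKα2 (184 ± 6.07 against 152 ± 15.9 CPM). The AMPKα1 log2 fold change of −0.32 (SE 0.42) was not called by edgeR (adjusted p = 0.992), and that of AMPKα2 was 0.27 (SE 0.23). Its end APS (31137632, chromosome 5) held 66.7% of the reads, from 46.3 to 81.7% in single libraries, both ends of that range in AMPKα1. An intronic APS (31119471) had 79 and 212 reads in AMPKα1 KO, 53 and 49 in AMPKα1 WT and 2 to 7 in the AMPKα2 libraries, and a coding APS (31116980) 0 to 2 reads in AMPKα1 libraries and 48 to 92 in AMPKα2 libraries. At these Trim54 APSs the models thus differed in how often they were read. Of the 59 APSs of the genes described, 17 had no read in any AMPKα1 library, while all were read in AMPKα2. The share of all APSs without a read in a model was not counted, so the 17 are not taken as a trait of these genes. Enough reads for a fit were found at 36 of the 59 in AMPKα1 and 43 in AMPKα2. Over all 56483 APSs these counts were 44024 and 23218. In AMPKα1 libraries 1.88 to 2.85% of reads fell on APSs without a gene, against 15.3 to 17.9% in AMPKα2 libraries.

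Fbxo30, the F-box gene of MUSA1, was at the limit of the depth. It had 40 and 0 reads in AMPKα1 KO, 13 and 20 in WT, 4 and 3 in AMPKα2 KO and 5 and 3 in WT. The 40 reads of the first AMPKα1 KO mouse all ended at an intronic APS (11294896, chromosome 10) that had at most 1 read elsewhere. Its 3′ UTR APS (11298048) had 0 and 0 reads in AMPKα1 KO, and its WT mean was 8.41 times the floor of 3 reads. edgeR called neither APS nor the gene (gene adjusted p = 0.999). In AMPKα2 it had too few reads for a fit.

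Ube2b, which encodes an E2 enzyme related to yeast RAD6, had 1397 and 853 reads in AMPKα1 KO and 791 and 1253 in WT. The scaled groups overlap (316 ± 114 against 397 ± 48.6 CPM; edgeR adjusted p = 0.985), as they do in AMPKα2 (326 and 539 reads in KO against 480 and 444 in WT; 210 ± 2.93 against 175 ± 49.0 CPM). Its reads were spread over 11 APSs. Of these, 6 lie in the 3′ UTR within 1079 bases of the gene end and hold 93.1% of its reads. In none of their windows was AATAAA or ATTAAA found. The APS at 51986576, with 16.0% of the reads, has 9 As in the next 10 bases, and whether its reads mark true transcript ends was not tested. The APS nearest the gene end (51985554, chromosome 11) took 26.0 and 28.3% of Ube2b reads in AMPKα1 KO and 32.8 and 44.4% in WT, and 45.4 to 60.1% in the AMPKα2 libraries, where KO and WT overlap.

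Murc had 862 and 1165 reads in AMPKα1 KO against 540 and 946 in WT. Its log2 fold change there was near 0 (−0.01, SE 0.38, edgeR adjusted p = 0.999). In AMPKα2 81 and 165 reads were counted in KO against 274 and 159 in WT, both scaled KO levels below both WT levels (58.3 ± 9.37 against 77.6 ± 3.56 CPM). As for Ubb, this lay at the end APS (48673497, chromosome 4, 91.9% of all Murc reads), which had 50 and 102 reads in KO against 213 and 122 in WT. The rest of its reads were not lower in KO by their mean, with 31 and 63 reads in KO against 61 and 37 in WT (17.8 ± 3.66 against 15.4 ± 0.26 CPM). The end APS took 61.7 and 61.8% of Murc reads in AMPKα2 KO and 77.7 and 76.7% in WT, a change of −15.5 points by the means. Over 3484 genes chosen as for Ubb, the change at the most-read APS had quartiles of −6.86 and 2.62 points.

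**Figure D3:**
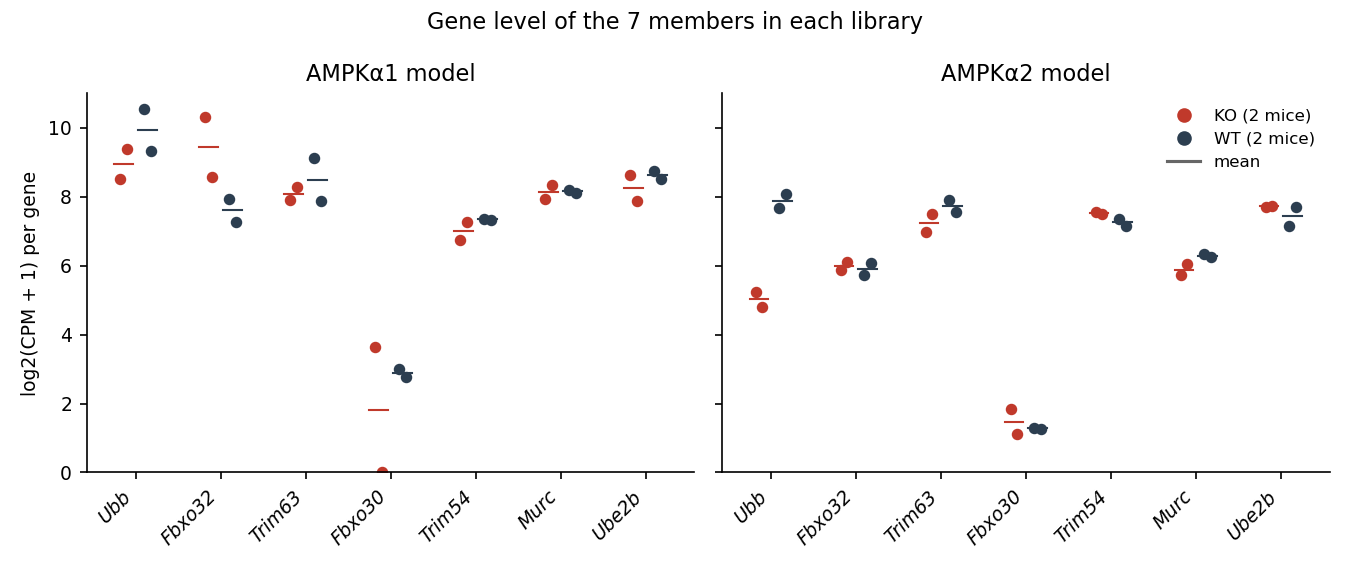
Level per gene (y axis: log2(CPM + 1)) of the 7 genes in each library of the AMPKα1 (left) and AMPKα2 (right) models, each scaled on its own; points are libraries, red KO and dark WT, bars the means of 2 mice. In AMPKα1 Fbxo32 has both KO libraries above WT and Fbxo30 has a KO library at 0; in AMPKα2 Ubb has both KO libraries far below WT.

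Counted over the 7 genes, edgeR called 0 in AMPKα1, with 1 at an unadjusted p under 0.05 (Fbxo32), and the KO and WT libraries did not overlap for 2 of them (Fbxo32 above, Trim54 below) against 32.5% of all genes. Their median log2 fold change was −0.32 there and −0.03 over all genes. Over APSs, 0 of the 36 with enough reads were called in AMPKα1, where 0.00454% of all APSs were, and 4 had an unadjusted p under 0.05 (the end APSs of Ubb, Trim63 and Fbxo32 and the APS of Fbxo32 at 58180086) against 3.07% of all APSs. In AMPKα2 the KO and WT libraries did not overlap for 4 of the 6 genes (Ubb, Trim63 and Murc below, Trim54 above), and for 39.3% of all genes. The APSs of 1 gene are not independent of each other.

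**Figure D4:**
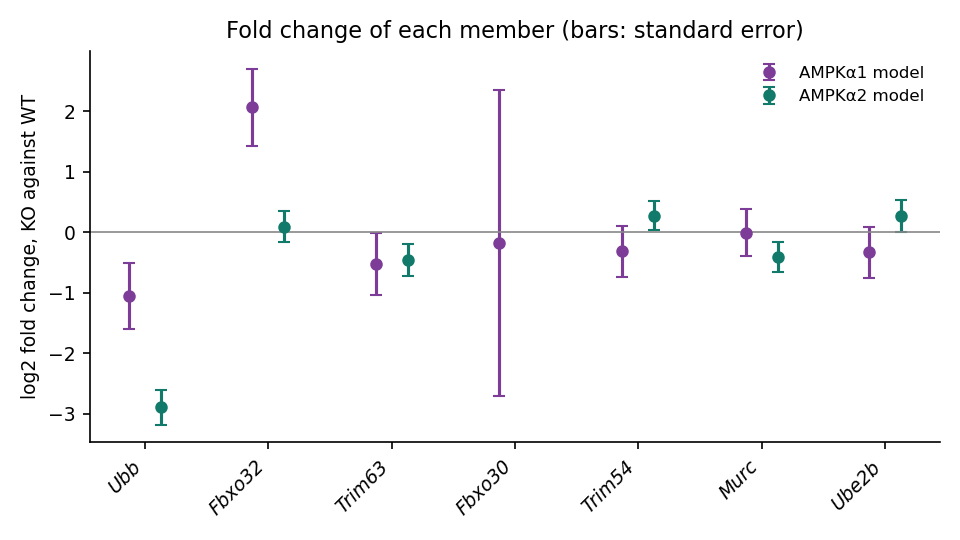
Log2 fold change of KO against WT (y axis) with its standard error (bars) for each gene (x axis) in the AMPKα1 (purple) and AMPKα2 (green) models. Ubb in AMPKα2 stands at −2.89, Fbxo32 in AMPKα1 at 2.06, Fbxo30 has the widest bar (SE 2.52) and no AMPKα2 value, and every other value lies between −1.05 and 0.27.

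The rest of the pathway was read from lists of E1 and E2 enzymes, muscle ligases, deubiquitinases, atrophy regulators, and cavins and caveolins, leaving out the genes above. In AMPKα1 0 of 25 E1 and E2 enzymes, 0 of 28 ligases, 0 of 19 deubiquitinases, 0 of 14 atrophy regulators and 0 of 8 cavins and caveolins were called by edgeR, against 0.0% of all genes. Of these 94 genes, 3 had an unadjusted p under 0.05 (Ube2e3, Ddit4 and Prkcdbp), as had 4.21% of all genes. In AMPKα2 1 of 17 deubiquitinases was called, and 0 of 24, 0 of 27, 0 of 14 and 0 of 8 in the other lists, against 0.673% of all genes, and 3 had an unadjusted p under 0.05 (Usp2, Mstn and Tnfrsf12a), as had 8.51% of all genes. The medians of the log2 fold change of these 5 lists ran from −0.27 to −0.12 in AMPKα1 (−0.03 over all genes) and from −0.04 to 0.12 in AMPKα2 (−0.00455 over all genes).

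Usp2, a deubiquitinating enzyme that removes ubiquitin from proteins, was higher in AMPKα2 KO. It had 542 and 660 reads in KO against 340 and 247 in WT, or 303 ± 60.8 against 108 ± 12.2 CPM, with a log2 fold change of 1.49 (SE 0.26, edgeR adjusted p = 0.0409). Both KO libraries lie above both WT libraries. The call was lost without the first KO mouse, the first WT mouse or the second WT mouse (edgeR adjusted p of 0.139, 0.584 and 0.163, log2 fold changes of 1.27, 1.36 and 1.61) and held without the second KO mouse (edgeR adjusted p = 0.0451). It was also lost with library totals as the scaling (log2 fold change 1.27, edgeR adjusted p = 0.112) and in a fit over all 8 libraries (1.49, edgeR adjusted p = 0.921). In AMPKα1 Usp2 overlapped between the groups (605 ± 156 against 620 ± 136 CPM, edgeR adjusted p = 0.999). Mstn, the gene of myostatin, a secreted inhibitor of muscle growth, had 73 and 176 reads in AMPKα2 KO and 106 and 58 in WT (57.9 ± 16.0 against 29.2 ± 2.55 CPM), and was not called (edgeR adjusted p = 0.295). Tnfrsf12a, the receptor of the cytokine TWEAK, had 3 and 12 reads in AMPKα2 KO and 38 and 13 in WT (edgeR adjusted p = 0.560).

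Genes read in one AMPKα1 genotype and not in the other were found in the lists as well. Ube2e3, an E2 enzyme, had 0 and 0 reads in AMPKα1 KO and 66 and 86 in WT, a WT mean 36.2 times the floor. Trim32, a ligase of the sarcomere and the gene of a limb-girdle muscular dystrophy, had 0 and 0 against 12 and 17 (6.83 times). Uchl1, a deubiquitinase best known in neurons, had 0 and 0 against 8 and 15 (5.18 times). Ddit4, an inhibitor of mTORC1 that is induced by stress, had 10 and 103 reads in KO against 0 and 0 in WT. Its KO mean was 12.5 times the floor, with the KO mice far apart (2.84 and 28.4 CPM). None of the 4 was called by edgeR (adjusted p = 0.763 for each). In AMPKα2 Ube2e3, Trim32 and Ddit4 were read in all 4 libraries, and Uchl1 had 0 and 2 reads in KO against 2 and 3 in WT. Of the 13941 genes tested in AMPKα1, 3.52% had no read in KO and reads in both WT mice, and 0.76% the reverse. These ratios set the mean of the group with reads against a floor of 3 reads per library. They are no lower bounds, and single mice can lie nearer to the floor. Among the other genes that the naming rule gave, Ube2z, an E2 enzyme, had 326 and 348 reads in AMPKα1 KO and 92 and 124 in WT, and Asb2, a substrate receptor of a muscle ubiquitin ligase, had 231 and 437 reads in AMPKα2 KO and 635 and 627 in WT, and neither was called by edgeR (adjusted p of 0.763 and 0.604).

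Markers of other cell types in the same libraries are given beside these values. In AMPKα2, summed skeletal muscle markers were higher in KO (80034 and 64304 CPM) than in WT (57666 and 62269 CPM), for the second KO library only just. That order is for TMM-scaled levels, with a factor of 0.744 for the first KO library, and was not checked with library totals. The sums of markers of adipocytes (170 to 286 CPM in KO and 229 to 533 in WT), erythroid cells (968 to 1490 and 747 to 1130), fibroblasts (2108 to 3644 and 1682 to 2210), macrophages (104 to 124 and 112 to 220), Schwann cells (89.9 to 93.2 and 77.4 to 236) and smooth muscle (51.0 to 63.7 and 47.7 to 64.9) overlapped. Endothelial markers were 55.1 to 65.0 CPM in KO and 49.1 to 54.8 in WT. In AMPKα1, summed skeletal muscle markers were lower in both KO mice (92801 and 72043 CPM) than in both WT mice (181790 and 98205 CPM), as were smooth muscle markers (85.6 and 103 CPM, and 114 and 188 CPM). Sums for erythroid cells (485 to 886 CPM in KO and 567 to 1184 in WT), macrophages (93.0 to 299.9 and 102 to 150) and endothelium (110 to 178 and 170 to 222) overlapped. Adipocyte markers (4 of 5 genes in the table) were 562 and 2155 CPM in KO against 804 and 559 in WT, fibroblast markers 11117 to 11169 in KO and 12223 to 15931 in WT, and Schwann cell markers 512 to 608 and 727 to 1371. Satellite cell markers (2 of 3 genes in the table) were 27.1 to 43.2 CPM in AMPKα1 KO and 8.11 to 15.3 in WT, and in AMPKα2 0.79 to 1.28 and 2.05 to 2.36. Their part in the values of Ubb and the atrophy genes was not tested.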

How the data were processed

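Gastrocnemius RNA of 8 male mice was profiled by WTTS-seq on an Ion PGM instrument. The authors filtered reads with the FASTX Toolkit 0.0.13.1, trimmed leading Ts, kept reads of at least 16 bases, mapped them with TMAP 3.4.1 and joined read starts within 24 nucleotides into APSs. The deposited values are raw read counts per APS and library (GRCm38.p5 per the labels), for APSs with at least 16 reads over all libraries.

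Counts were summed per gene ID. CPM values and tests used edgeR 4.0.16 (limma 3.58.1, R 4.3.3) with TMM, a robust quasi-likelihood fit on genotype within each model, features with at least 16 reads over its 4 libraries, and an adjusted p under 0.1. Gene-level CPM is relative to reads assigned to genes and APS-level CPM to all reads. SEs are approximate, computed as the log2 fold change over the square root of F. DESeq2 1.42.0, other scalings, filters and fits, and leaving out each library were tried. Code was tested on simulated data. Figures and tables used Python 3.11.15 with matplotlib 3.10.9, pandas 2.3.3, numpy 2.4.6 and scipy 1.17.1. Locations and sequences came from GENCODE release 21 (GRCm38), in which Murc is named Cavin4.

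The genes described, the pathway and marker lists and the naming rule were chosen with earlier results of these data known. The rule named the 7 genes, every list gene called, the 2 list genes with the lowest unadjusted p per list and model, the 5 genes most like Ubb, and some genes that are not reported here. KO and WT mice with the same number are different mice, and a fit with the number as a block was an alternative only.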

Additional observations from a re-analysis of the deposited data

Results flagged for a closer look

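The 7 genes described, their 59 APSs and the pathway genes that the naming rule gave were searched, where both models had a fit. In 8 cases both KO libraries lay on one side of both WT libraries in AMPKα1 and on the other side in AMPKα2. Whether the effects of the 2 models differ was not tested. Over all features tested in both models this was so for 6.49% of genes and 5.4% of APSs. The values are log2 fold changes in AMPKα1 and then in AMPKα2. Of the genes described above, Trim54 had −0.32 and 0.27, its end APS (31137632) −0.88 and 0.17, and the intronic Trim63 APSs 1.66 and −1.28 (134317377) and 1.12 and −1.85 (134320779). Among the pathway genes, Foxo4, a FOXO transcription factor, had −1.27 and 0.62, Mstn −0.44 and 0.99, Prkcdbp, the older symbol of the cavin gene Cavin3, −1.45 and 0.30, and Nedd4l, a HECT ligase, −1.07 and 0.89. The pathway genes were named by a low unadjusted p in a model, which favours separate libraries there. The shares over all features are therefore no background for them. The intronic Trim63 APS at 134317377 had 131 and 129 reads in AMPKα1 KO and 10 and 55 in WT, and 3 and 8 in AMPKα2 KO and 18 and 14 in WT. Foxo4 had 71 and 107 reads in AMPKα1 KO and 101 and 224 in WT, and 72 and 218 in AMPKα2 KO and 152 and 89 in WT. All 8 cases are for levels after TMM scaling, with gene-level factors from 0.744 to 1.16. With library totals the log2 fold changes of Trim54 were −0.05 in AMPKα1 and 0.08 in AMPKα2. Whether the KO and WT levels of the 8 cases stay apart with library totals was not checked.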

How the results depend on the processing

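With 2 mice per group and a spread of 104% per gene in AMPKα1, only large differences could pass there, and APSs with under about 16 reads could not be fitted. With DESeq2 1 of the 7 genes was called in AMPKα1 (Fbxo32, 2.12), and 124 genes in all. In a fit over all 8 libraries 0 of the 7 genes was called in AMPKα2 in place of 1, with 6 genes called in all in place of 71, while the Ubb value stayed at −2.88. Over APSs in AMPKα1, 1 was called with library totals (Fbxo32, 58180086, 2.80) and 1 in the fit over all 8 libraries (Trim63, 134327779). Leaving out 1 library gave 0 to 1 called APSs of these genes in AMPKα1 (the end APS of Ubb without the second WT mouse) and 0 to 1 in AMPKα2. A group left with 1 library was assumed to vary like the others. The Ubb value in AMPKα2 was −3.42 when only the APS with the most reads per gene was used, and the change in its end share was 0 with APSs of under 100 reads left out, since the end APS alone remained.

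Murc in AMPKα1, −0.01 as reported, had the opposite sign with DESeq2 (0.0433), RLE scaling (0.0387), library totals (0.26), no filter (0.0029), at least 10 reads in 2 libraries (0.0045), all 8 libraries (0.0229), only APSs on the strand of the gene (0.0061) and the APS with the most reads (0.0096), and Fbxo30 with library totals (0.0347). Without 1 library each, Murc ran from −0.22 to 0.17, Trim63 from −0.98 to 0.23 and Fbxo30 from −7.27 to 0.81. The cause of these changes was not tested. The counts of all genes and APSs called moved more, in AMPKα2 genes from 6 to 397 (no filter) and in AMPKα1 APSs from 0 to 432. In AMPKα2 APSs they ran from 0 to 557.

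Same-numbered mice of KO and WT did not deviate together (correlations of −0.0063 to 0.0338). The replicate block changed no call of these genes, with 0 of the 7 genes called in AMPKα1 and 1 in AMPKα2 as before. It moved the APSs called in AMPKα2 from 13 to 519 and genes from 71 to 99. Of the 5 genes nearest to Ubb, 4 stayed with a pseudocount of 5, and at an adjusted p under 0.05 the same number of list genes was called in each model (0 and 1).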
